A study of Homo sapiens with 12 samples.

Results

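The multicopy cancer/testis antigen genes were followed across 12 RNA-seq libraries of U937, a human myelomonocytic leukemia cell line. The genes were taken by symbol: MAGEA, MAGEB, MAGEC, GAGE, XAGE, PAGE, SSX, CTAG, CT45A, CT47A and SPANX symbols, and PRAME. This gave 91 of the 44786 gene symbols in the table, with 249 transcript rows, and each gene was represented by its row with the highest mean over the 12 libraries. Of the 91, SSX2IP, MAGEA8-AS1 and SPANXA2-OT1 share only the prefix and were set apart, leaving 88 genes in 12 families, 85 of them placed on the X chromosome. Untreated cells, cells given 200 nM decitabine (DAC), cells given 1 µM all-trans retinoic acid (ATRA) and cells given both (DAC + ATRA) had 3 libraries each. DAC was renewed daily over 3 days and, per the study's methods, ATRA was added with the third dose. The labels give 72 h for the treated cells and 96 h for the untreated cells, so that in comparisons with untreated cells this difference and the treatment cannot be told apart. DAC + ATRA against ATRA, both at 72 h, does not carry it. The labels list 20% FCS and 5 ng/ml GM-CSF in the medium of all groups and call the controls untreated. The sources differ here, since the study's methods name less serum, no GM-CSF and vehicle controls for the cell lines, give 1 harvest time for all groups, and place ATRA later than a reading of the labels as ATRA over all 3 days. The libraries come from a single cell line and no source used here says that they are separate cultures, so p-values measure the spread between these libraries, which may be technical.

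Cancer/testis antigens are proteins made in male germ cells and in some tumors but in few other adult tissues, and many are recognised by T cells. Most of their genes lie on the X chromosome as recently duplicated, near-identical copies whose promoters are methylated in somatic cells. DAC is built into DNA, where it traps DNA methyltransferases, and loss of promoter methylation is a known route to the expression of these genes, while ATRA activates retinoic acid receptors.

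The promoter letters are shown for 5 of the genes in the results below: MAGEB2, MAGEC2, MAGEC1 and SSX1 were high in all libraries that received DAC, and SPANXB1 was high only in those that received DAC + ATRA. Whether the letters bear on the levels was not tested. Each is the 150 bases before the transcription start, 5′ to 3′ on the gene's strand, from RefSeq (GRCh38.p14), and each start coincides with the start of the transcript row used. Capitals mark CCGGAA or CCGGAT on either strand. CCGGAA is a binding core of ETS transcription factors that holds a CpG, the methylated dinucleotide, and CCGGAT was added to the search after the letters had been read.

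MAGEB2, chrX:30215413-30215562, plus strand: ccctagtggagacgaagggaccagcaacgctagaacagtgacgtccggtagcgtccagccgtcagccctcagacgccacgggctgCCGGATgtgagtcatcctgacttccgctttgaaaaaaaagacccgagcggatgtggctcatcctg
MAGEC2, chrX:142205291-142205440, minus strand: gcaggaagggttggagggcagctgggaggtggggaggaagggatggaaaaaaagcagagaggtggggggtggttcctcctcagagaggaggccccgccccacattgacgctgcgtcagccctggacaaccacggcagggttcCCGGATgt
MAGEC1, chrX:141903744-141903893, plus strand: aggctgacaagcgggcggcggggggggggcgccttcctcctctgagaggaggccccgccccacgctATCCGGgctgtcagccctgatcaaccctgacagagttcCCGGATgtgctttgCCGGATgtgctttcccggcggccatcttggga
SSX1, chrX:48255242-48255391, plus strand: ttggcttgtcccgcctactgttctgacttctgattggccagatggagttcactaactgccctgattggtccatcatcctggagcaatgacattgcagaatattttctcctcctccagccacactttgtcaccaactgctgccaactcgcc
SPANXB1, chrX:141002444-141002593, plus strand: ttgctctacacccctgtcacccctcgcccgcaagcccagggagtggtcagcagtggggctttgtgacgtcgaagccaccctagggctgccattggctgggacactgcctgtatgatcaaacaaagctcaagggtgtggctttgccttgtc

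The MAGEC1 window held 3 of these matches and the MAGEB2 and MAGEC2 windows 1 each, while the SSX1 and SPANXB1 windows held 0. Of windows read but not shown, that of MAGEB6 held CCGGAA at position -29 and that of MAGEA9B held CCGGAT at position -20. RefSeq promoter windows of 300 bases (250 before and 50 after the start) were found for 61 of the 88 genes, and MAGEA1 and CTAG2 had none in the table used. The start coincided with that of the transcript row used for 46 of the 61. The farthest placed were those of GAGE12B, 188705 bases away, and MAGEC3, 14104 bases away, and the row of SSX5 could not be placed. CCGGAT stood in 14 of the 61 windows (22.95%) and in 7.12% of all 35116 promoter windows, and CCGGAA stood in 3 of the 61 and in 17.25% of all. The 14 were all MAGE genes, whose promoters are related in sequence and are therefore not independent of each other. Both motifs were searched on both strands, and matches on opposite strands can share the letters CCGG. The 61 windows held a median of 11 CpGs (range 2 to 21), beside a median of 14 for all windows (quartiles 4 and 28).

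The libraries held 8042435 to 10683593 counted reads, 36.3% to 42.5% of them from mitochondrial transcripts, and 3 reads corresponded to 2.50 to 3.71 normalized reads. Of 10 markers of myelomonocytic cells, MPO, CEBPA, CD4, SPI1, LYZ and ITGB2 had reads in all libraries, CD33, CD68 and FCER1G did not exceed 3.71 normalized reads in any library, and TYROBP was listed at 0. Of 10 markers of T cells, B cells, epithelium, fibroblasts and late male germ cells, 5 were at 0 in all libraries (CD3E, CDH1, COL3A1, PRM1 and PRM2). The summed level of these 10 ran from 13.7 to 21.2 normalized reads in untreated, 205 to 266 in DAC, 45.4 to 50.1 in ATRA and 125 to 161 in DAC + ATRA libraries. Without COL1A1, a collagen gene, the sum was 0 in the untreated and ATRA libraries and 4.32 to 13.9 in those with DAC. How much of each marker can be counted, a limit described below for the cancer/testis genes, was not measured. A low value or a 0 therefore does not show that a marker RNA was absent. The part of other cell types in the results was not tested. In bulk RNA, a change in the share of cells that express a gene and a change in the RNA per cell cannot be told apart.

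Of the 88 genes, 33 had at least 1 read in the 12 libraries and 55 had none. In single libraries, 8 to 10 of the 88 had a read without DAC and 17 to 27 with DAC or DAC + ATRA. Reads on the 88 genes together numbered 42, 51 and 48 in the untreated libraries and 69, 65 and 63 after ATRA. They numbered 1005, 1489 and 1455 after DAC and 1531, 1451 and 1205 after DAC + ATRA. The 2 sets of libraries were far apart for these genes, while the number of all transcripts with a read was close in them, at 39499 to 42620 without DAC and 42584 to 46261 with DAC. MAGEB2 alone supplied 36.5% to 69.6% of the reads on the 88 genes in each library.

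A gene was tested when its transcript reached a normalized read count of 10 in at least 3 of the 12 libraries, which 9 of the 88 did: MAGEB2, MAGEB6, MAGEC1, MAGEC2, MAGEA1, MAGEA9B, CTAG2, SSX1 and SPANXB1. With the exception of MAGEB2, which was above 10 in all libraries, they passed through the groups in which they were high, so counts over these 9 are a description. Differences are given in units of log2(normalized read count + 1), and adjusted p-values are from limma with Benjamini-Hochberg adjustment over all 9016 protein-coding transcripts tested, at a threshold of 0.01. After DAC, 8 of the 9 were higher than in untreated cells and 0 lower, where 30.6% of all transcripts tested were called higher and 8.7% lower. After DAC + ATRA, 9 were higher and 0 lower, beside 32.6% and 14.2% of all. After ATRA, limma, DESeq2 and edgeR each called 0 of the 9, beside 6.47% (higher) and 2.67% (lower) of all transcripts by limma, and 2 had an unadjusted p under 0.05, MAGEB2 and SPANXB1. DAC + ATRA exceeded ATRA for 9 of the 9 (25.9% of all called higher, 8.88% lower) and exceeded DAC for SPANXB1 only (6.08% of all called higher, 5.26% lower). All 6 libraries with DAC lay above all 6 without it for 8 of the 9 genes and for 23.9% of all transcripts tested, and nothing is read from this count, since the filter favoured it. With 3 libraries a group, an exact permutation test of a single gene cannot give a p below 0.1, so none was used.

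**Figure D1:**
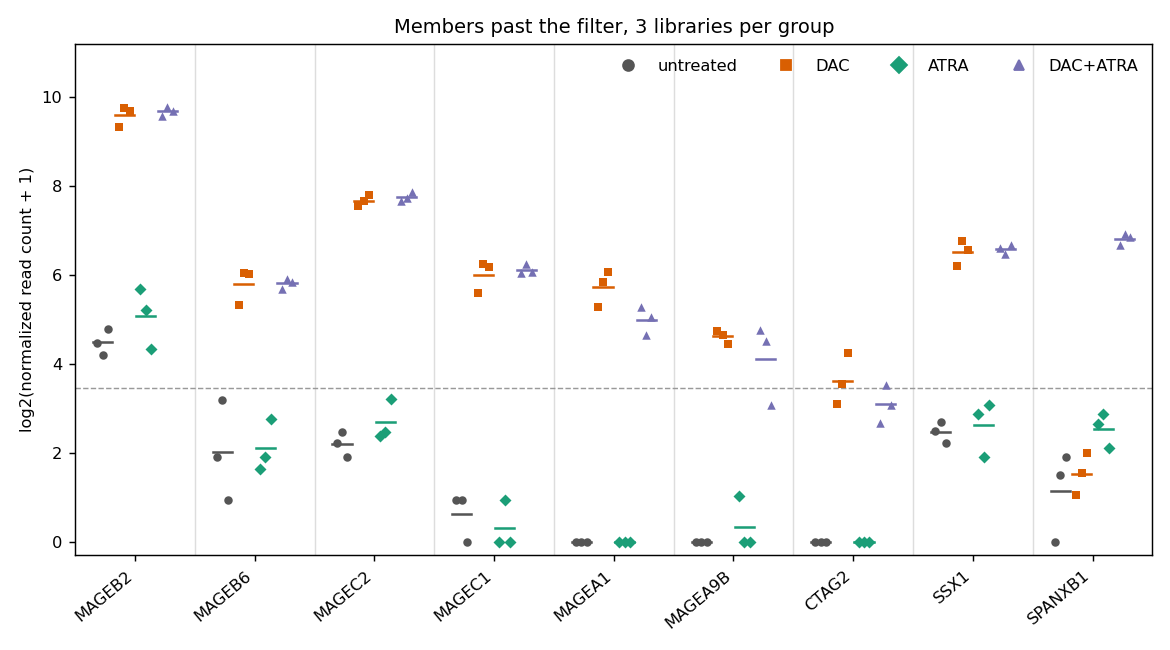
Normalized read counts of the 9 tested genes in each library on the log2(count + 1) scale, with a bar at each group mean and a dashed line at the filter value of 10. The DAC and DAC + ATRA libraries lie above the untreated and ATRA libraries for 8 genes, and for 23.9% of all transcripts tested, while for SPANXB1 only the DAC + ATRA libraries stand apart, at 102 to 120 normalized reads.

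The MAGE genes of the A, B and C families encode proteins with a shared MAGE homology domain, many of which bind RING-type ubiquitin ligases. MAGEB2 (ENSG00000099399, chrX:30215563-30220089) had the highest level of the 88 genes. Its normalized read counts were 21.1, 17.3 and 26.8 in untreated cells, 640, 868 and 832 after DAC, 50.7, 36.4 and 19.1 after ATRA and 762, 877 and 829 after DAC + ATRA. The DAC and DAC + ATRA libraries overlapped with each other and with neither of the other groups, while the untreated and ATRA libraries overlapped. MAGEB2 rose by 5.11 (SE 0.25, adjusted p = 2.05e-11, limma) with DAC and by 5.20 (SE 0.25, adjusted p = 1.24e-11, limma) with DAC + ATRA. It was 0.60 higher after ATRA (adjusted p = 0.139, limma), and without library 9, the lowest of the ATRA libraries, this difference was 0.97 with an adjusted p of 0.000629, so the lack of a call rested on that library. Leaving out library 9 also changed the ATRA calls over all 9016 transcripts, from 583 to 807 higher and from 241 to 217 lower. The other 8 tested genes did not exceed 8.19 normalized reads in any untreated library.

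MAGEB6 (chrX:26192440-26195646), a second member of the B family, counted 2.76, 8.19 and 0.924 in untreated cells and 38.9, 65.3 and 63.7 after DAC. After ATRA it counted 2.11, 2.73 and 5.83, within the untreated range, and after DAC + ATRA 50.6, 58.9 and 56.8, within the range of DAC. It rose by 3.78 (SE 0.44, adjusted p = 4.85e-07, limma) with DAC and by 3.80 (SE 0.44, adjusted p = 3.50e-07, limma) with DAC + ATRA.

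Other genes of the B family that lie beside these had few reads or none. MAGEB3, MAGEB4 and MAGEB1 follow MAGEB2 on the same strand within the stretch chrX:30215563-30252040. In its highest library MAGEB3 reached 7.79 normalized reads and MAGEB1 3.16, and MAGEB4 had no read. Beside MAGEB6, MAGEB6P1 had 2 reads in all, MAGEB18, farther on the same side, reached 4.94, and MAGEB5 on the other side had no read. The number of 50-base windows in which a read can be counted, summed over a gene's transcripts and described with the silent genes, was 1509 for MAGEB2 and 1658 for MAGEB6, beside 577 for MAGEB3, 2002 for MAGEB4, 1568 for MAGEB6P1, 1665 for MAGEB18, 1137 for MAGEB5 and 96 for MAGEB1. The promoter windows differed within the family, with 21 CpGs for MAGEB2 and 11 for MAGEB6, 18 for MAGEB1, 3 for MAGEB3, 2 for MAGEB4, 7 for MAGEB18 and 4 for MAGEB5.

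MAGEC2 (chrX:142202342-142205290), whose product binds the co-repressor TRIM28, counted 3.68, 4.55 and 2.77 in untreated cells, 186, 203 and 222 after DAC, 4.22, 4.55 and 8.32 after ATRA and 203, 214 and 232 after DAC + ATRA. It rose by 5.47 (SE 0.24, adjusted p = 1.25e-13, limma) with DAC and by 5.56 (SE 0.24, adjusted p = 6.26e-14, limma) with DAC + ATRA. MAGEC1 (chrX:141903894-141909374) counted 0.919, 0.91 and 0 in untreated cells and 47.6, 75.0 and 71.7 after DAC, then 0, 0.91 and 0 after ATRA and 65.1, 74.7 and 66.7 after DAC + ATRA. With 2 reads in the untreated libraries together, the ratio of DAC to untreated was 107, with a 95% counting interval of 29.1 to 888 that covers counting error only. The third member, MAGEC3, which lies next to MAGEC1, had 1 read in all, in library 6 (DAC).

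In the A family, 2 of 12 genes passed the filter. MAGEA1 (chrX:153179284-153183880), the founding member of the family, was at 0 in all untreated and ATRA libraries. It counted 37.8, 56.5 and 66.7 after DAC and 38.0, 24.2 and 32.1 after DAC + ATRA, at least 19.5-fold and 11.4-fold above the level of 3 reads per library. The mean fell from 53.7 ± 14.7 (SD, n = 3) with DAC to 31.4 ± 6.91 with DAC + ATRA, but the groups overlapped and the difference of -0.74 (SE 0.35) had an adjusted p of 0.172 (limma). Its unadjusted 95% interval of -1.475 to -0.0029 left out 0, and the ratio of reads was 0.587 with a counting interval of 0.449 to 0.764. MAGEA9B (chrX:149581653-149587459) was at 0 in untreated cells, at 25.9, 24.4 and 20.9 after DAC, at 1.06, 0 and 0 after ATRA and at 26.2, 22.1 and 7.41 after DAC + ATRA. This was at least 8.62-fold above the level of 3 reads with DAC. MAGEA9 is a near-identical copy, and both genes had 100 countable windows. MAGEA9 received 1 read in all, and the split of reads between the 2 copies is uncertain.

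CTAG2 (LAGE-1, chrX:154651972-154653579), a relative of the NY-ESO-1 genes CTAG1A and CTAG1B, was at 0 in untreated and ATRA libraries. It counted 7.57, 10.7 and 17.9 after DAC and 5.42, 10.5 and 7.41 after DAC + ATRA, at least 4.39-fold and 2.83-fold above 3 reads. SSX1 (chrX:48255392-48267444), a transcriptional co-repressor known as a fusion partner of SS18 in synovial sarcoma, counted 4.60, 5.46 and 3.69 in untreated cells, 72.4, 108 and 93.6 after DAC, 6.34, 2.73 and 7.49 after ATRA and 96.7, 88.4 and 101 after DAC + ATRA. Its log2 fold changes were 4.04 (SE 0.29, adjusted p = 2.83e-10, limma) with DAC and 4.12 (SE 0.29, adjusted p = 1.52e-10, limma) with DAC + ATRA. For both genes, all libraries with DAC lay above all libraries without it, CTAG2 by few reads.

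For none of the 8 genes that rose with DAC did DAC + ATRA differ from DAC past the threshold. Beside MAGEA1, given above, the log2 difference between DAC + ATRA and DAC was 0.09 for MAGEB2, with a 95% interval of -0.45 to 0.62, and 0.09 for MAGEC2, with an interval of -0.42 to 0.59. It was 0.08 for SSX1 (-0.53 to 0.69), 0.02 for MAGEB6 (-0.90 to 0.94) and 0.11 for MAGEC1 (-0.67 to 0.89). For MAGEA9B and CTAG2 it was -0.50 (-1.43 to 0.43) and -0.54 (-1.38 to 0.31). Of the 9 genes, MAGEA1 (lower) and SPANXB1 (higher) had an unadjusted p under 0.05 by limma in this comparison. Over the other 7 the intervals reach from -1.43 to 0.94, and they do not show that the treatments acted alike.

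SPANXB1 (ENSG00000227234, chrX:141002594-141003706) encodes a small nuclear protein of spermatids and behaved differently from the other 8. It counted 0, 1.82 and 2.77 in untreated cells, 1.08, 1.95 and 2.99 after DAC and 5.28, 6.37 and 3.33 after ATRA. After DAC + ATRA it counted 102, 120 and 115, with no overlap with any other group. The mean of 112 ± 9.19 (SD, n = 3) stood beside 2.01 ± 0.955 for DAC and 4.99 ± 1.54 for ATRA. Against DAC the log2 difference was 5.28 (SE 0.44, adjusted p = 1.80e-08, limma), and the ratio of reads was 55.0 with a counting interval of 25.0 to 151. Against ATRA it was 4.27 (SE 0.44, adjusted p = 7.11e-08, limma). DAC alone gave 0.40 (adjusted p = 0.467) and ATRA alone 1.41 (adjusted p = 0.0342), neither past the threshold of 0.01 by limma.

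The DAC × ATRA interaction is 0 when the log2 changes of the single agents add up. It includes the untreated libraries, so it carries their difference in labelled time (96 h against 72 h). For SPANXB1 it was 3.87 (SE 0.62, adjusted p = 0.000486, limma), the only one of the 9 called, where 0.787% of all transcripts were called higher and 1.67% lower. It was 4.17 with an adjusted p of 0.0131 by edgeR and 3.26 with an adjusted p of 0.2155 by limma with a pseudocount of 0.1, so the call at 0.01 was lost in these settings, while DESeq2 on the recovered reads kept it. Its relatives gave few reads: SPANXC had 4 in all, 3 of them after DAC + ATRA, SPANXD had 6, and SPANXA1 and SPANXA2 had none.

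**Figure D2:**
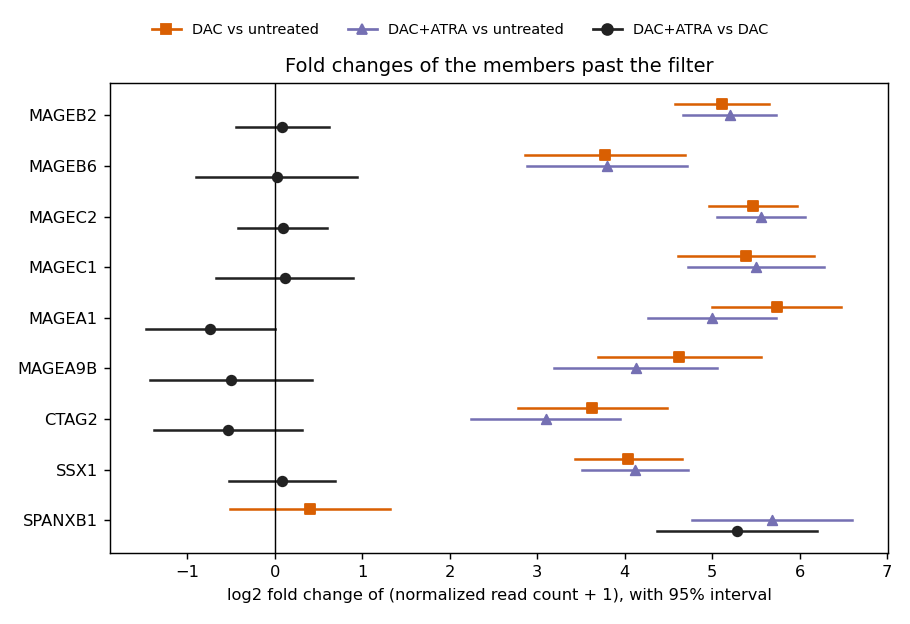
Log2 fold changes with 95% intervals for the 9 tested genes: DAC against untreated (squares), DAC + ATRA against untreated (triangles) and DAC + ATRA against DAC (circles). The circles lie between -0.74 and 0.11 for 8 genes, with the interval of MAGEA1 below 0, and at 5.28 for SPANXB1.

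Levels between genes were compared per 1000 bases of transcript. After DAC + ATRA the order was MAGEB2 (512), SPANXB1 (241), MAGEC2 (108), SSX1 (78.1), MAGEB6 (28.5), MAGEA1 (18.4), MAGEC1 (16.2), MAGEA9B (10.2) and CTAG2 (7.84), in normalized reads per 1000 bases. MAGEA1 and MAGEC1 overlapped in their libraries (14.2 to 22.2 and 15.3 to 17.6), as did MAGEA9B (4.09 to 14.5) and CTAG2 (5.46 to 10.6), while the first 4 were separate from their neighbours. The order depended on how much of a transcript can be counted. Per 1000 countable windows, MAGEA9B moved from the eighth to the third place (186) and CTAG2 from the ninth to the sixth (53.7), while MAGEB2 (545) and SPANXB1 (404) kept the first places.

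The families were set beside each other by the summed normalized reads of their members in each library, as a description. MAGEB had 26.3 ± 2.09 (SD, n = 3) in untreated cells, 849 ± 139 after DAC, 39.0 ± 13.9 after ATRA and 894 ± 64.3 after DAC + ATRA. MAGEC went from 4.28 ± 1.37 to 269 ± 31.6 with DAC and 285 ± 16.0 with DAC + ATRA, and SSX from 4.58 ± 0.884 to 99.8 ± 19.3 and 103 ± 7.76. MAGEA, at 0 in untreated cells, reached 77.4 ± 12.3 and 50.7 ± 12.5, and CTAG, also at 0, reached 12.1 ± 5.31 and 7.79 ± 2.57. Each of these sums was carried by the 1 or 2 genes already described. SPANX stood at 2.45 ± 2.82 in untreated cells, 2.33 ± 1.08 after DAC, 5.57 ± 1.58 after ATRA alone and 114 ± 9.74 when both were given. PAGE reached 10.1 ± 5.94 with DAC and 6.45 ± 1.91 with DAC + ATRA against 0.921 ± 0.919 in untreated cells. The GAGE family (3.05 ± 2.09 untreated, 4.07 ± 0.226 with DAC) and the XAGE family (1.53 ± 0.538 and 3.01 ± 1.62) stayed at a few reads in all groups, CT45A reached 2.29 ± 2.04 with DAC, PRAME had 1 read in all, and CT47A was at 0 throughout.

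**Figure D3:**
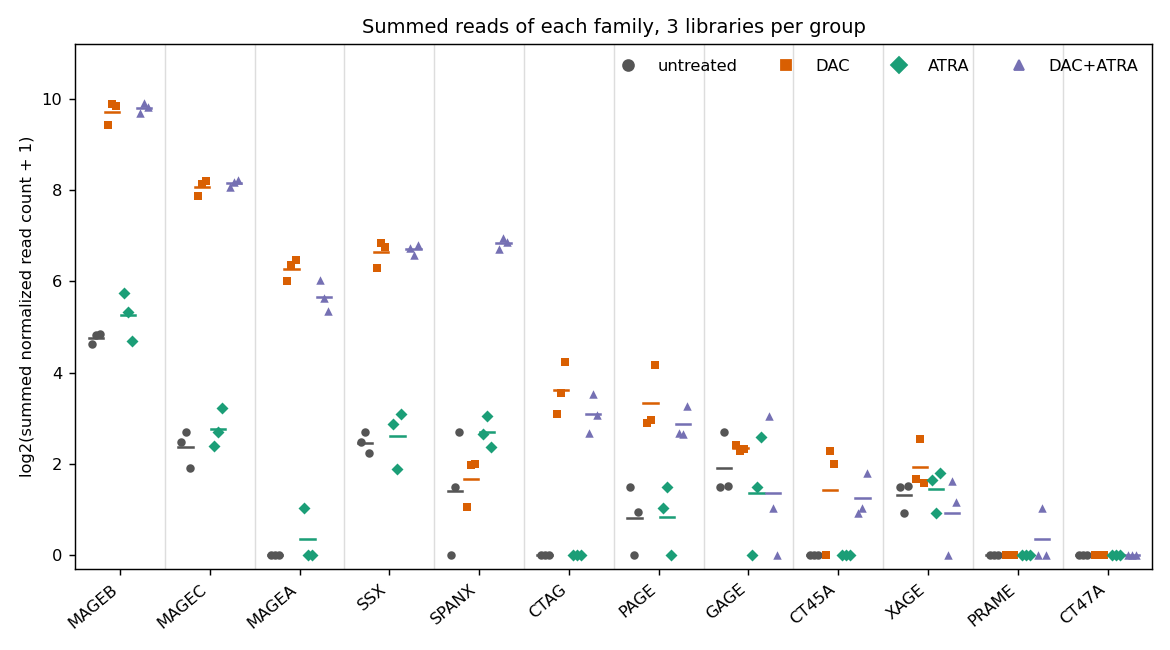
Summed normalized reads of each family in each library on the log2(sum + 1) scale, with a bar at each group mean. MAGEB, MAGEC, MAGEA, SSX, CTAG and PAGE libraries with DAC lie above those without, PAGE by few reads. Of all transcripts tested, taken singly, 23.9% separate in this way. SPANX lies at 103 to 122 in the DAC + ATRA libraries and at 4.16 to 7.28 in the ATRA libraries, and CT47A is at 0 in all 12.

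A further 24 genes had reads but did not pass the filter, with 23 reads among them in the untreated libraries, 19 in ATRA, 124 in DAC and 108 in DAC + ATRA libraries. Of the 24, 17 had no read in the untreated and ATRA libraries and at least 1 read after DAC or DAC + ATRA, a pattern shown by 30.2% of the 14959 gene symbols with reads below the filter. PAGE1 had 2 reads in untreated, 28 in DAC, 2 in ATRA and 16 in DAC + ATRA libraries, and SSX3 had 0, 25, 0 and 21. All protein-coding transcripts with a read were then fitted, which left out the rows of PRAME, XAGE1B and XAGE5, as these are not protein-coding. In this fit, SSX3 had a log2 change of 3.12 (adjusted p = 3.15e-06) and PAGE1 one of 2.66 (adjusted p = 6.95e-05) with DAC by limma. Of the 30 genes of the families in this fit, DAC raised 11, beside 12.7% of all 25317 transcripts, and DAC + ATRA raised 13, beside 13.9%. Many of the 30 had reads only in libraries with DAC, so counts over the 30 are a description too. DESeq2 on the same transcripts raised 9 of the 30 with DAC, beside 9.48% of all, without PAGE1 and GAGE2A, and 10 of the 30 with DAC + ATRA, beside 10.5%, without MAGEB3, MAGEB10 and PAGE1, all of which limma called. For so few reads, the size of these changes depends on the pseudocount.

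The highest library of the 24 genes was low in all families. In the SSX family SSX3 reached 13.9 normalized reads and SSX5 1.24, and in the PAGE family PAGE1 reached 14.9, PAGE5 1.99 and PAGE2 1.06. In the B family the highest values were 8.42 for MAGEB10, 7.79 for MAGEB3, 4.94 for MAGEB18, 3.24 for MAGEB16, 3.16 for MAGEB1 and 1.05 for MAGEB6P1. GAGE10 reached 5.46 and GAGE2A 4.52. These GAGE genes had opposite patterns in reads: GAGE10 had 10 in untreated, 1 in DAC, 8 in ATRA and 4 in DAC + ATRA libraries, and GAGE2A had 0, 11, 0 and 5. In the other families XAGE2 reached 3.90, XAGE1B 1.24 and XAGE5 0.974, CT45A1 reached 3.90 and CT45A3 0.996, SPANXD reached 2.77 and SPANXC 1.24, MAGEA4 and MAGEA9 reached 1.05 each, and MAGEC3 reached 0.996. PRAME, which encodes a substrate receptor of a cullin-2 ubiquitin ligase and is known to repress retinoic acid receptor signalling, reached 1.05, from a single read in library 11 (DAC + ATRA). Of the 3 genes set apart, SSX2IP, which encodes a centrosomal protein, had the most reads, and its row is a retained intron.

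Whether a gene of these families can be seen depends on its sequence. A 50-base window was called countable when it occurs once in hg38 and overlaps no exon of another transcript of the table on its strand. Reads that align to several places, or that cover more than 1 listed transcript, are commonly left out of a count, but the counting mode was not given in the sources used here. Of all 50-base windows in the 88 genes' exons, 60.2% occur once in the genome, 26.2% overlap no other transcript and 12.7% meet both conditions. The libraries were paired-end, so a mate could place a read that its own letters do not, and the windows are a guide only.

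Windows were summed over all transcripts of a gene, while its reads are those of the row with the highest mean, so that a gene without a read had none on any of its transcripts. Of the 88 genes, 37 had no countable window on any transcript, and 1 of these 37, XAGE1B, had a read. Of the rows used, 43 had no countable window and 4 of these had reads, those of XAGE1B, MAGEC3, CT45A3 and PAGE2, with 1 to 3 reads each. Of the 27 genes with 1 to 199 countable windows 14 had a read, and of the 24 with at least 200 windows 18 had a read. In 34 of the 37, no window occurs once in the genome, and in the other 3, MAGEA3, MAGEA6 and MAGEA8, the windows that occur once overlap other transcripts. The share of countable windows was 42.3% in MAGEC, 37.9% in PAGE, 34.4% in MAGEB, 23.5% in SPANX, 20.0% in XAGE, 10.8% in SSX, 4.54% in GAGE, 4.33% in MAGEA, 3.19% in CTAG, 2.62% in PRAME, 1.72% in CT45A and 0.322% in CT47A. MAGEB and MAGEC thus combined large shares with the highest sums, and CT47A, CT45A and PRAME small shares with few reads or none. The share of MAGEA was small, but MAGEA1, which supplied most of that family's reads, was 100% countable, and PAGE and XAGE had few reads with larger shares. For CT47A the copies were the limit (0.322% of windows occur once, 100% are free of other transcripts), and for PRAME the overlap of its own transcripts (100% and 2.62%).

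**Figure D4:**
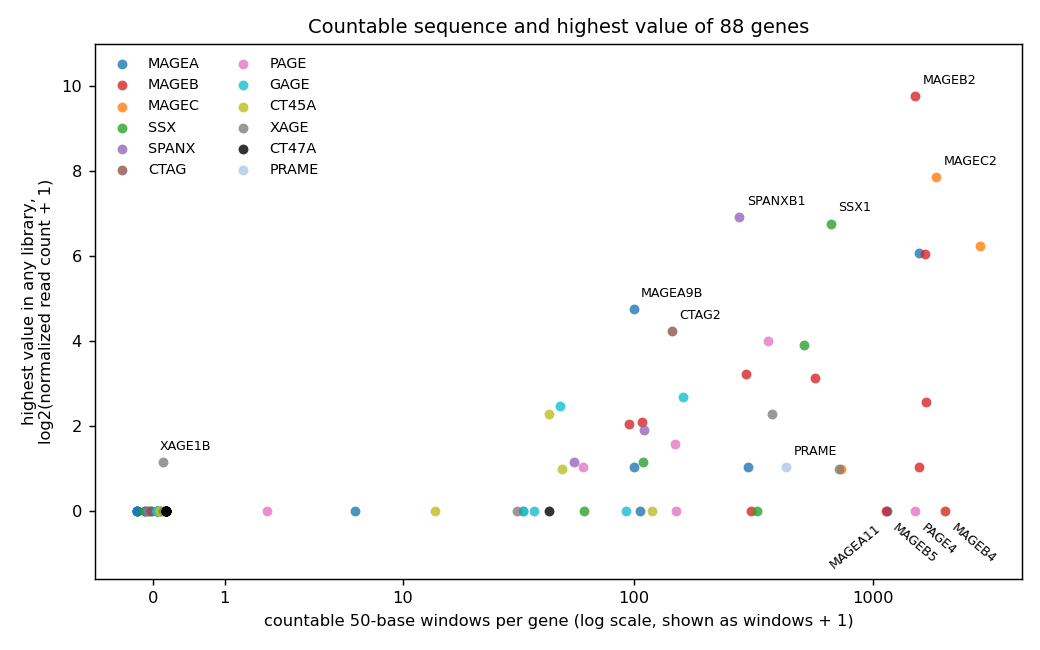
Highest value of each of the 88 genes in any library, as log2(normalized read count + 1), against the number of countable 50-base windows over all its transcripts (log axis), colored by family. Points at 0 windows are spread sideways so that they can be told apart. The genes with 0 windows lie at 0 reads except XAGE1B, and MAGEB4, PAGE4, MAGEA11 and MAGEB5 lie at 0 reads with over 1000 windows.

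The 55 genes without a read therefore fell into sets that differ in what they can show. Those with no countable window were CT45A2, CT45A5, CT45A7, CT45A8 and CT45A9, all CT47A genes except CT47A6, CTAG1A and CTAG1B, GAGE12B to GAGE12G and GAGE2E, MAGEA2, MAGEA2B, MAGEA3, MAGEA6 and MAGEA8, SPANXA1 and SPANXA2, SSX2, SSX4 and SSX4B, and XAGE1A. For these, among them the NY-ESO-1 genes, the table does not separate an RNA that is absent from one that cannot be counted. A few windows were countable in CT45A6, CT45A10, CT47A6, GAGE1, GAGE12H, GAGE12J, GAGE13, MAGEA10, MAGEA12, PAGE2B, PAGE3, SSX2B and XAGE3, from 2 for PAGE2B to 151 for PAGE3. Only 6 silent genes had at least 200, namely MAGEB4 (2002), PAGE4 (1509), MAGEA11 (1148), MAGEB5 (1137), SSX7 (328) and MAGEB17 (311). No read was seen for these 6 in any of the 12 libraries, which allows up to 3 reads in a library, or 2.50 to 3.71 normalized reads, for counting error only. This bound holds for transcripts with countable windows. All 1148 windows of MAGEA11 lie on 1 transcript, ENST00000518694, and its other transcripts, including the row used, have none. For those transcripts of MAGEA11, absent RNA and RNA that cannot be counted are not separated. MAGEA11 had 21 CpGs in its promoter window, as did MAGEB2, while MAGEB4, MAGEB5, PAGE4 and SSX7 had 2 to 6.

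Other gene lists, drawn up with earlier results of these data known, were read with the same test. Of 56 cancer/testis genes outside these families, 15 were tested, of which DAC raised 10 and lowered 0 (30.6% and 8.7% of all transcripts) and DAC + ATRA raised 11 and lowered 0 (32.6% and 14.2% of all). Many of these, too, passed the filter only through the libraries with DAC, so the counts and the median log2 changes (3.97 with DAC and 3.99 with DAC + ATRA, beside 0.22 and 0.20 over all transcripts) are a description. DAZL, a germ cell RNA-binding protein, was at 0 in untreated and ATRA libraries and at a mean of 301 normalized reads after DAC and 266 after DAC + ATRA. FMR1NB was likewise at 0, then at 205 and 197, and the RNA helicase gene DDX53 went from 0.610 in untreated cells to 177 after either treatment. Of 6 genes with means above 10 in all groups, ZNF165 rose by 1.55 and CEP55, a gene of cell division, by 0.43 with DAC + ATRA. The other 4, SPA17, SPAG9, OIP5 and PBK, were not called (0.04, -0.41, -0.21 and -0.35). DAC + ATRA exceeded DAC for 1 of the 15, ZNF165 (0.57, adjusted p = 0.00722, limma), beside 6.08% of all transcripts. ATRA called 0 of the 15 by limma, beside 6.47% higher and 2.67% lower of all, and a count of 0 is near that background.

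Of 13 type II MAGE genes, which most tissues express, 4 were tested, of which DAC and DAC + ATRA each raised 1, a share close to that of all transcripts (30.6% and 32.6%). It was NDN, at 0 in untreated and ATRA libraries and at a mean of 9.01 and 10.8 normalized reads after DAC and DAC + ATRA. ATRA raised 1 of the 4, MAGEF1 (0.62, adjusted p = 0.000120, limma), where 6.47% of all were called higher. MAGEF1 was lower with DAC + ATRA than with ATRA (-0.79, adjusted p = 1.36e-06, limma; 8.88% of all lower), its interaction was -0.65 (adjusted p = 0.00819, limma; 1.67% of all lower), and it was at -0.17 against untreated cells, not called.

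Of 16 genes of the DNA methylation machinery 7 were tested, and the other 9 did not pass the filter. Among the 7, DAC + ATRA raised 1 and lowered 2, beside 32.6% and 14.2% of all transcripts, with a median of 0.04 over the 7. These were DNMT3A, a de novo methyltransferase (1.43), HELLS, a remodeler that methylation requires (-1.09), and TET1, a 5-methylcytosine oxidase (-0.60). DAC called the same directions for these (0.32, -0.94 and -0.55), with a median of 0.01, beside 30.6% higher and 8.7% lower of all. ATRA raised 2 of the 7 and lowered 0 (6.47% and 2.67% of all), DNMT3A by 1.38 and TET3 by 0.50, and DNMT3A had means of 2664 normalized reads with ATRA and 2761 with DAC + ATRA. Of 9 genes that act with PRAME only RARA, a retinoic acid receptor, was tested, which DAC raised by 1.27 and DAC + ATRA by 2.07 (adjusted p = 1.25e-06 and 6.75e-10, limma).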

How the data were processed

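RNA-seq of U937 cells was analysed for 12 libraries, 3 each from untreated, DAC, ATRA and DAC + ATRA cells; MOLM-13 cells were not analysed here. Per the labels and the paper, the authors depleted ribosomal RNA, made strand-specific paired-end libraries, used STAR with hg38 for alignment, htseq-count for counting and DESeq2 for testing; versions, annotation release and counting mode are not given in the sources used here. In the deposited table each signal value is a transcript's read count, scaled by the authors with a size factor of its library (0.809 to 1.20; 197782 transcripts). All values were whole multiples of 1 step per library within 0.1 of a read, so the reads were recovered, and 8042435 to 10683593 were counted per library. For the column of DAC library 6 the step lies close to 1.

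Columns name the group and a running number of 1 to 12, which names libraries here. Rows were matched by identifier to GENCODE 44 (174768 matched), and gene coordinates are those of that annotation on GRCh38. Protein-coding transcripts that reached 10 normalized reads in 3 or more libraries entered 1 limma fit (3.58.1, trend, robust, R 4.3.3) over the 12 libraries. Values were log2-transformed after adding 1, p-values were adjusted after Benjamini-Hochberg and the threshold was 0.01. The members, lists and the rule that all genes past the filter are named were chosen with earlier results of these data known. Within groups, the libraries differed by more than sampling noise (chi-square per degree of freedom 2.36 to 10.4).

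Ratios for low genes are sums of reads over sums of size factors with exact 95% counting intervals; where untreated libraries were at 0, a fold is a lower bound against 3 reads per library, for counting error only. Windows of 50 bases were matched to hg38 in Python 3.11.15. Promoter windows came from RefSeq (GRCh38.p14). Protein identities within families had been planned and were not made, since no protein sequences were used here. Alternatives were tests of the recovered reads by edgeR (4.0.16, TMM) and by DESeq2 (1.42.0), library size scaling, a pseudocount of 0.1, no filter, 10 reads in every library, all transcripts, values summed by symbol, only the groups compared, a threshold of 0.05 and leaving out each library; DESeq2 without a filter was added after the data were seen. The fits were tested on simulated data. A planned cell type marker is not reported here.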

Additional observations from a re-analysis of the deposited data

Results flagged for a closer look

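SPANXB1 was singled out because the effect of ATRA differed between cells with and without DAC: the DAC × ATRA interaction was 3.87 on the log2 scale (SE 0.62, adjusted p = 0.000486, limma). The interaction includes the untreated libraries and so carries their difference in labelled time. All 3 DAC + ATRA libraries (102, 120 and 115 normalized reads) lay above all 9 others, whose highest value was 6.37. Groups of 3 libraries were not screened for outlying libraries.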

How the results depend on the processing

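The counts of genes called higher moved by over 1.5 times for DAC, DAC + ATRA and DAC + ATRA against either agent only with the filter of 10 reads in every library: it left MAGEB2 alone, so that they became 1 (DAC), 1 (DAC + ATRA), 1 (against ATRA), 0 (against DAC) and 0 (interaction). Without a filter they were 11 of 30 genes with DAC and 13 of 30 with DAC + ATRA (12.7% and 13.9% of all protein-coding transcripts with a read). Many of these 30 had reads only in libraries with DAC, so these counts are a description. With ATRA, the count of 0 became 1 at a threshold of 0.05 (SPANXB1, 1.41) and was 0 to 1 when single libraries were left out (1 without library 9, MAGEB2, 0.97). Without library 9, 807 of all 9016 transcripts were called higher with ATRA, beside 583 with all libraries. The interaction count of 1 became 0 with edgeR and with a pseudocount of 0.1.

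Single-gene values kept their direction and side of the threshold in 1157 cases, and 24 values that were not called changed sign. For MAGEB6 with ATRA the log2 change was -0.12 with DESeq2, -0.13 with edgeR, -0.12 with DESeq2 without a filter and -0.45 to 0.68 without single libraries. Its interaction was 0.13, 0.17 and 0.12 in the same 3 settings and -0.65 to 0.47 without single libraries. Without single libraries, the difference between DAC + ATRA and DAC ran from -0.22 to 0.15 for MAGEB6, from -0.049 to 0.17 for MAGEB2, from -0.092 to 0.23 for MAGEC1, from -0.077 to 0.21 for SSX1 and from -0.82 to 0.025 for MAGEA9B. SSX1 with ATRA ran from -0.082 to 0.51 and its interaction from -0.43 to 0.16, and SPANXB1 with DAC ran from -0.17 to 0.79. The SPANXB1 interaction was 3.48 to 4.44 without single libraries. The cause was not tested.

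No paired analysis was possible because the columns carry a running number and not the replicate numbers of the labels. Genes at a few reads, and those without countable windows, limit what the depth can show.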
